A study of Homo sapiens with 3 samples.

Results

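Distal peaks were the peaks called for tagged wild-type MECOM that lay more than 10000 bp from the gene assigned to them. They were taken from a single annotated peak list of human HEK293T cells, a kidney-derived line, that carried wild-type MECOM with an AM tag (the group labelled WT). A peak was counted as distal when the list placed it upstream or downstream of its assigned gene at a deposited shortest distance over 10000 bp, with or without a gene symbol, and when it lay outside the MECOM gene itself. Of 3462 peaks in the list, 3457 lay outside MECOM, and 503 of these were distal (14.6%, exact Clopper-Pearson 95% interval 13.4 to 15.8%). The other 2954 peaks served as the comparison, and 410 of them that lay 1 to 10 kb outside their assigned gene are given separately as flanking peaks.

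The study also holds a vector library and a library of the R750W substitution of MECOM, each made with the same anti-AM tag antibody, and their peaks were not analysed here. Chromatin was cut with micrococcal nuclease and sonicated before immunoprecipitation. MECOM was supplied from an introduced construct in a cell line that is neither a blood cell nor a mast cell, and each group had 1 library. There was therefore no replicate of any value, and no test between peaks or groups was made. The intervals below cover counting error of fragments or peaks, or for medians the uncertainty of the median given the number of peaks. They do not give the spread between single peaks and cover no variation between libraries. The list does not give the depth of the library, so the depth behind a value is given as fragments at that peak.

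MECOM, also called EVI1, is a zinc finger transcription factor that blood stem cells need and that is overexpressed in some myeloid leukaemias. It has an N-terminal and a C-terminal group of zinc fingers with different preferred sequences, the first related to the GATA motif and the second related to the ETS motif. Transcription factors often bind away from promoters, at enhancers and other elements that can act on genes over long distances, and the nearest annotated gene is only a positional label for such a site. The list paired 3414 of the 3457 peaks outside MECOM with an Ensembl gene, and many of these genes were short or unnamed. Of the 503 distal peaks, 342 (68.0%, 63.7 to 72.1%) had an assigned gene without a symbol. The same was true of 20.6% of the other peaks that had a gene and of 55.4% of the flanking peaks. The assigned genes of distal peaks had a median length of 958 bp, against 30859 bp for the other peaks.

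The label of these peaks was compared with a second annotation, the RefSeq genes of GRCh38.p14, and most of the peaks were not far from a gene there. Of the 503 distal peaks, 286 (56.9%, 52.4 to 61.2%) lay inside a RefSeq gene, and 222 (44.1%, 39.7 to 48.6%) lay inside a protein-coding one. For 196 of the 286 the list had assigned a gene without a symbol, for 81 it had assigned another symbol, and for 9 it had assigned the same symbol with a gene model that did not reach the peak. Only 143 distal peaks (28.4%, 24.5 to 32.6%) were more than 10 kb from every RefSeq gene, and 84 (16.7%, 13.5 to 20.3%) were more than 100 kb from every coding gene. "Distal" therefore describes the position relative to the gene in the deposited list.

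A set of 54 distal peaks overlapped the window around the start of a RefSeq gene, and the stretches upstream of 8 such starts are shown because they are sequence that the peaks covered at promoters which the deposited annotation did not name. A start window spanned 250 bases before to 50 bases after a RefSeq start. Starts were looked up for 485 distal peaks, of which the 54 were 11.1% (8.48 to 14.3%). The 54 windows belonged in 43 cases to coding genes, and in 1 case, SIPA1L2, the gene at the start was the gene that the list had assigned. In 37 cases the assigned gene had no symbol. The same overlap was found for 10.6% of 405 flanking peaks and for 39.1% of 2820 other peaks.

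The sequences are the parts of the 250 upstream bases that the peak covered, 5′ to 3′ on the strand of the gene, from RefSeq on GRCh38.p14. All 8 are starts of coding genes with at least 60 covered bases. The 3 with the highest peaks are given first, followed by the highest peak among such starts whose shown sequence held each motif, a choice made after the values were seen. Capitals mark exact matches on either strand to the motifs searched, which are spelled out below. The first 3 sequences held none of them. The EHBP1 sequence is chr2:62706063-62706312 on the plus strand, that of CALD1 is chr7:134891365-134891457 on the plus strand and that of NFIA is chr1:61081489-61081738 on the plus strand. NPY1R (chr4:163332597-163332821, minus strand) held the EVI1 C-terminal short motif and SLC35F2 (chr11:107858788-107858926, minus strand) the ETS motif. FMN2 (chr1:240091633-240091882, plus strand) held the CTCF core and the NFY motif, and RTN4 (chr2:55050452-55050588, minus strand) the AP-1 and the EVI1 C-terminal short motif. MAPRE2 (chr18:35041324-35041412, plus strand) held the CRE.
EHBP1: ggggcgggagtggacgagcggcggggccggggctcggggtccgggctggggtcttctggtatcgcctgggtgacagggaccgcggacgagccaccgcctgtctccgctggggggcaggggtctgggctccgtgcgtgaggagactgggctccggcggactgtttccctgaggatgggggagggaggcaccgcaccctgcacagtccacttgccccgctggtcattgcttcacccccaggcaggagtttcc
CALD1: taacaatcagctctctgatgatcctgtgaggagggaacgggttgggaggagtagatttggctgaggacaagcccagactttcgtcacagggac
NFIA: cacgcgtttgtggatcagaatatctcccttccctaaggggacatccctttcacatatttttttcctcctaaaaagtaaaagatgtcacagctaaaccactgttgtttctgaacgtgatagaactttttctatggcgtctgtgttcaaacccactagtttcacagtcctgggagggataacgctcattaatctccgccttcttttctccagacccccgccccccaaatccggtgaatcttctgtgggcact
NPY1R: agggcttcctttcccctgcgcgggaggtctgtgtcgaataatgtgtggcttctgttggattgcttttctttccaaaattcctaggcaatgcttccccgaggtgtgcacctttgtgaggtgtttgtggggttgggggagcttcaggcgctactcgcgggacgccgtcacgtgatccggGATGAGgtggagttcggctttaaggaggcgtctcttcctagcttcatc
SLC35F2: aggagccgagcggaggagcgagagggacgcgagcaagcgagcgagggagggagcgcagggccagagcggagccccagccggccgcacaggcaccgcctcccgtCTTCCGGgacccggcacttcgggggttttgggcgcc
FMN2: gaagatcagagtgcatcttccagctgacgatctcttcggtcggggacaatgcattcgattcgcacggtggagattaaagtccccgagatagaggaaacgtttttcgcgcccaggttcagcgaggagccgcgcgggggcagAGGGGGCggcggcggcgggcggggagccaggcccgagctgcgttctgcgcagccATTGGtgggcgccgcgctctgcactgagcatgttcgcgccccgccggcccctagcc
RTN4: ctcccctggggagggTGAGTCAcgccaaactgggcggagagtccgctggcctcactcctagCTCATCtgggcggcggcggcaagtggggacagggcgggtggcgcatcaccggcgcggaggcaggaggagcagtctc
MAPRE2: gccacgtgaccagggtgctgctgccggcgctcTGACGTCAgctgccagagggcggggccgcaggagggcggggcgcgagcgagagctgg

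EHBP1, which encodes a protein of endocytic vesicle transport, had the highest peak of the 54 (9.72-fold, 6.47 to 14.1, from 26 fragments), although the list placed that peak 19655 bp downstream of an unnamed gene. The peak at CALD1, which encodes the actin-binding protein caldesmon, was 7.96-fold enriched (5.74 to 10.8), and the list assigned it to AGBL3 at 94708 bp. The peak at the start of NFIA, a transcription factor of glial and blood cell development, was 7.15-fold enriched (4.83 to 10.2). The peak at NPY1R, a receptor of neuropeptide Y, was 6.01-fold enriched (3.64 to 9.42) and was assigned to the neighbouring receptor gene NPY5R at 11118 bp. SLC35F2, FMN2, RTN4 and MAPRE2 encode a solute transporter, an actin nucleator, a protein of the tubular endoplasmic reticulum and a microtubule end-binding protein. Their peaks were 5.54-fold (3.45 to 8.50), 5.38-fold (3.69 to 7.61), 5.27-fold (3.42 to 7.79) and 4.33-fold (2.95 to 6.16) enriched. The intervals of EHBP1 and MAPRE2 did not overlap, and those of every other pair among the 8 did.

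Over all 54 start peaks the fold ran from 3.03 to 9.72 with a median of 4.72. The genes that follow were named after their values were seen and stand for no theme. TET1, which encodes an enzyme that oxidises methylated cytosine, had a start peak of 5.19-fold (2.94 to 8.62), 31780 bp from an unnamed gene. TGIF1, a homeobox corepressor of SMAD signalling, had one of 5.17-fold (3.38 to 7.59) that the list had placed 16193 bp upstream of GAPLINC. ZNF217, a zinc finger gene, had one of 4.66-fold (3.02 to 6.90), and ELF2, an ETS family gene, had one of 3.95-fold (2.58 to 5.79). SIAH1, a ubiquitin ligase gene, and CYTH1, which encodes an exchange factor of ARF proteins, had start peaks of 5.30-fold and 5.34-fold. The lowest was at CANX, which encodes the chaperone calnexin (3.03-fold, 1.91 to 4.60). None of these genes was the one that the list had assigned.

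Exact motif letters were counted in the whole 300-base windows on both strands, under 54 distal peaks, under 1104 other peaks and in all 35116 RefSeq windows. The GATA motif AGATAA was in 0 of 54 windows, which allows a share of up to 5.56%, in 4.80% of those under other peaks and in 10.3% of all windows. The EVI1 N-terminal motif GACAAGATA and the longer EVI1 C-terminal motif GAAGATGAG were both in 0 of the 54 windows and in 0 of the 1104, where 0 allows up to 0.272%. They were rare in all windows as well, at 0.0968% and 0.347%. The shorter EVI1 C-terminal motif GATGAG, which lies within the longer one and can share bases with an AP-1 match, was in 12 of the 54 windows (22.2%, 12.0 to 35.6%). It was in 10.2% (8.51 to 12.2%) of the windows under other peaks and in 12.0% of all windows. The interval of the 54 windows overlapped that of the other peaks, and this was 1 of 10 motifs counted.

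None of the remaining motifs separated the windows under distal peaks from the rest by more than the counting intervals. The ETS motif (CCGGAAG or ACAGGAAG) was in 14.8% (6.62 to 27.1%) of the 54 windows, 17.9% of those under other peaks and 12.9% of all. The CTCF core (AGGGGGC or AGGTGGC) was in 20.4%, 26.6% and 20.0%, and the NFY motif CCAAT in 27.8%, 30.7% and 34.6%. AP-1 (TGACTCA or TGAGTCA), CRE (TGACGTCA) and NRF1 (GCGCATGC) were in 2, 1 and 1 of the 54 windows. Base composition differed from that of RefSeq starts at large: the median GC content was 67.5% (64.7 to 70.7%) under distal peaks, 67.0% under other peaks and 58.7% in all windows. The median number of CpG dinucleotides was 26, 27 and 14. A letter match is a description of the window and not a binding site.

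**Figure D1:**
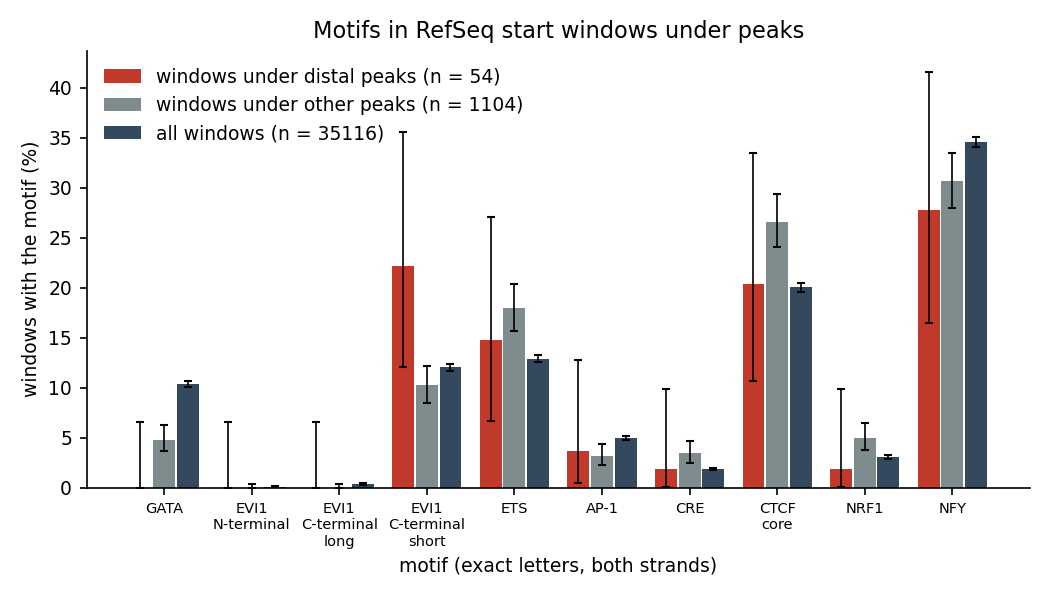
Share of RefSeq start windows (y axis, percent) that held each motif (x axis), for 54 windows under distal peaks, 1104 under other peaks and all 35116, with exact 95% binomial intervals. GATGAG, the EVI1 C-terminal short motif, was in 22.2% of the windows under distal peaks and 10.2% of those under other peaks, with overlapping intervals.

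By place, the distal peaks differed from the rest of the list mainly at starts and far outside genes. Of the 503, 54 lay on a start window, 178 (35.4%) elsewhere inside a coding gene, 56 (11.1%) inside another RefSeq gene, 72 (14.3%) outside genes but within 10 kb of one, and 143 (28.4%) beyond that. Among 2911 other peaks on chromosomes with a gene table, the last class held 36 (1.24%, 0.868 to 1.71%), and among the flanking peaks it held 22 (5.37%, 3.39 to 8.01%). Within 1 kb of a RefSeq start were 88 of the 485 distal peaks (18.1%, 14.8 to 21.9%), 21.5% of the flanking peaks and 65.0% of the other peaks. The rule selected peaks by distance to a gene, so these differences are given as a description.

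**Figure D2:**
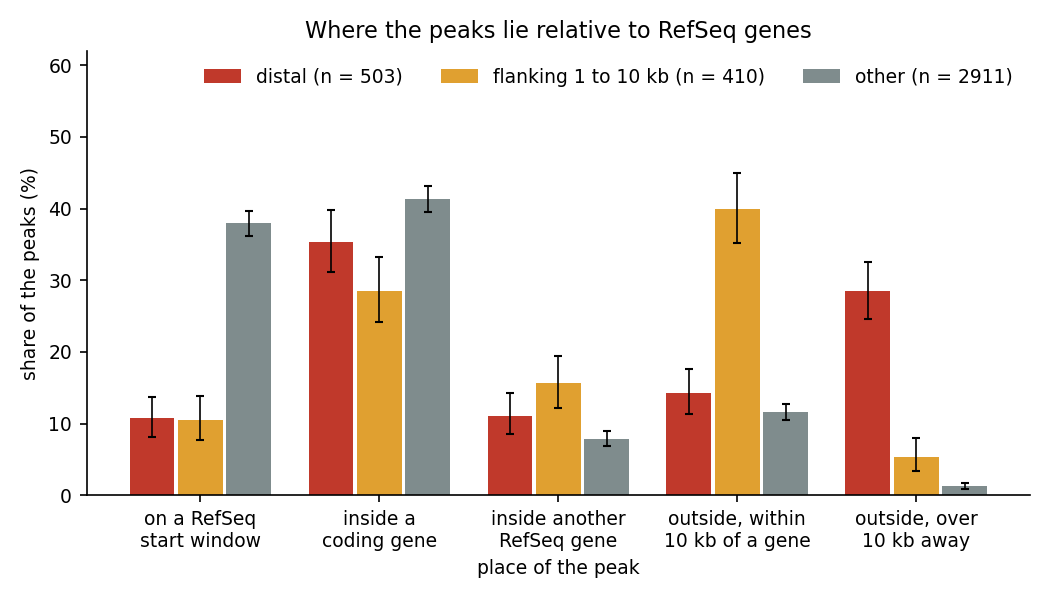
Share of peaks (y axis, percent) in each of 5 exclusive places relative to RefSeq genes, for 503 distal peaks, 410 flanking peaks and 2911 other peaks (which include the flanking ones), with exact 95% binomial intervals. Peaks over 10 kb outside any RefSeq gene made up 28.4% of the distal peaks and 1.24% of the other peaks.

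The deposited distance ran from 10003 bp to 2486219 bp with a median of 25734 bp and quartiles of 15714 and 47542 bp. Upstream of the assigned gene lay 300 distal peaks (59.6%, 55.2 to 64.0%) and downstream 203. The 503 peaks had 455 different assigned genes, 39 genes had 2 or more distal peaks, and no gene had more than 4. The median distance from a distal peak to the nearest RefSeq start was 24401 bp, and to the nearest coding gene 10657 bp. The deposited distance is to the assigned gene and the first of these RefSeq distances is to a start, so they are unlike measures. They were similar for some peaks and very different for others.

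**Figure D3:**
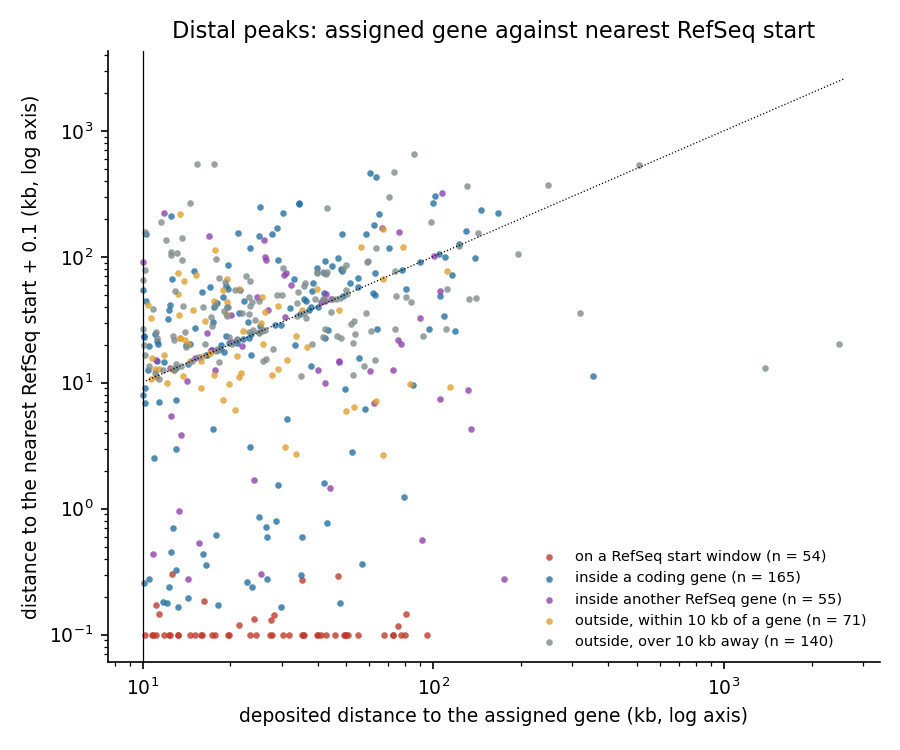
Distance of each distal peak to the nearest RefSeq start (y axis, kb plus 0.1, log) against the deposited distance to its assigned gene (x axis, kb, log) for the 485 peaks with a start table, coloured by place. The dotted line marks equal distances, the vertical line marks 10 kb, and the peaks on a start window form the band at the bottom.

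At the limit of the rule, peaks on both sides had similar values. The 3 members nearest to it lay 10003 bp from ERFL (chr19:41920100-41920598, 7.05-fold, 4.33 to 10.9), 10014 bp from an unnamed gene inside UNC13A (6.30-fold) and 10027 bp from an unnamed gene inside LOC645544 (3.73-fold). The first lay inside ARHGEF1, and inside the longer gene model that RefSeq has for ERFL. The 3 nearest peaks outside the rule, at 9902, 9939 and 9971 bp, were 6.76-fold, 8.79-fold and 3.13-fold enriched and lay over TRE-TTC4-2, LOC107984006 and LOC112268076.

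Height was measured as the fold enrichment that the peak caller reported over its local background, and distal peaks were slightly higher than the other peaks by this measure. The median fold of distal peaks was 5.05 (order-statistic 95% interval 4.91 to 5.19), that of the other peaks was 4.79 (4.75 to 4.82) and that of the flanking peaks was 4.99 (4.83 to 5.15). The first 2 intervals did not overlap, and their medians stood in a ratio of 1.05. The median −log10 q was 5.33 in all 3 sets, and the median width was 415 bp for distal and 414 bp for other peaks. Fragments at the peak had a median of 17 for distal peaks and 18 for the other peaks, and the expected background had a median of 2.37 against 2.96 fragments. The flanking peaks had the same medians as the distal peaks, 17 fragments and a background of 2.37. The small difference in fold thus went with a lower background and not with more fragments. The lowest background in the list, 1.70 fragments, was shared by 110 distal peaks (21.9%, 18.3 to 25.7%) and 312 other peaks (10.6%, 9.48 to 11.7%), and by 16.3% (12.9 to 20.3%) of the flanking peaks. Among peaks at that background the median fold was 5.93 for distal (5.56 to 5.93) and 5.56 for other peaks (5.56 to 5.93), and above it 4.79 (4.66 to 5.04) and 4.67 (4.61 to 4.72), with overlapping intervals in both cases.

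**Figure D4:**
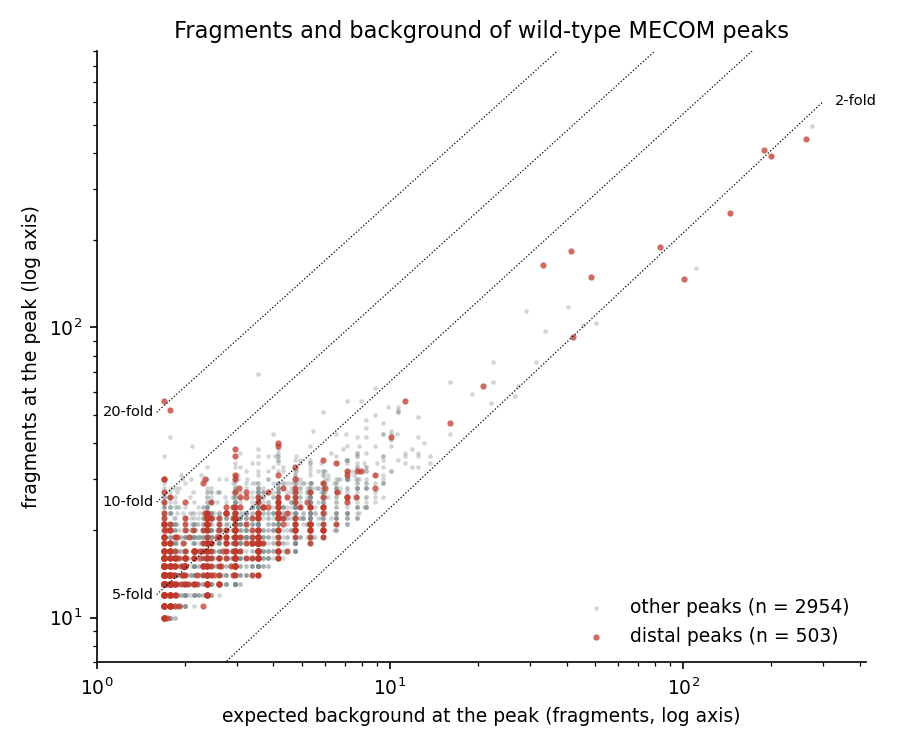
Fragments at the peak (y axis, log) against expected background (x axis, log) for 503 distal and 2954 other peaks, with dotted lines of equal fold at 2, 5, 10 and 20. The cloud of both sets overlaps, 2 distal peaks stand near the 20-fold line, and the 11 distal peaks with backgrounds above 20 fragments lie on the right, at folds of 1.45 to 4.82.

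High peaks made up a share of the distal peaks that was near the share in the whole list. A fold at or above the 90th percentile of the list (6.68) was reached by 55 distal peaks (10.9%, 8.34 to 13.99%), where 10.3% of all peaks outside MECOM reached it. A fold of 10 or more was reached by 5 distal peaks (0.994%, 0.324 to 2.30%), against 0.665% of all peaks. The interval of the fold lay wholly above the median of the list for 28 distal peaks (5.57%, 3.73 to 7.95%), against 5.35% of all peaks. Medians by distance lay close together. The median was 5.19 in 194 peaks at 10 to 20 kb, 5.06 in 195 at 20 to 50 kb, 4.75 in 78 at 50 to 100 kb and 5.23 in 36 farther away. By place, the medians were 4.72 on starts (4.17 to 5.19), 5.04 inside coding genes (4.79 to 5.19), 4.83 inside other genes (4.39 to 5.54), 5.36 within 10 kb outside a gene (5.01 to 5.87) and 5.19 beyond (4.85 to 5.45). These intervals overlapped.

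The 2 highest distal peaks stood apart and were also the highest of the 3457 peaks, since no other peak outside MECOM was above 15.5-fold. The first (chr6:20835230-20836011) lay inside CDKAL1, which encodes a tRNA-modifying enzyme, and 56 fragments over a background of 1.70 gave it a fold of 21.1 (16.1 to 27.3). The list had placed it 34536 bp upstream of an unnamed gene. The second (chr1:81874361-81874978) lay inside ADGRL2, which encodes the adhesion receptor latrophilin 2, with 52 fragments and a fold of 19.1 (14.3 to 24.9). Their intervals overlapped each other, and the lower bound of the first was above the value of every other distal peak except the second. ADGRL2 held 3 further distal peaks, of 5.19-fold (2.94 to 8.62) within the gene and of 4.34-fold (2.67 to 6.73) and 3.90-fold (2.60 to 5.64) at start windows of the gene.

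The next 13 peaks had folds between 8.16 and 11.5, and their intervals overlapped. A peak 11355 bp from VIM, which encodes the intermediate filament protein vimentin, lay outside any gene (chr10:17248948-17249413) and was 11.5-fold enriched (7.88 to 16.3) from 30 fragments. A peak with the same fragments and background lay inside ERC1, a scaffold protein of vesicle docking (chr12:1122083-1122752). A peak inside VAV1, a signalling protein of blood cells (chr19:6838113-6838669), was 10.4-fold enriched (6.97 to 14.9) and had been assigned to ADGRE1, at 48897 bp. The peak nearest to PDE4B, a phosphodiesterase that degrades cyclic AMP, lay 26101 bp from it (chr1:66400680-66401031) and was 9.84-fold enriched (7.04 to 13.4), while the list had assigned it to SGIP1 at 132352 bp. The EHBP1 start peak followed, and then a peak 17212 bp from MAP1B, a microtubule-associated protein of neurons (chr5:72089806-72090263, 9.64-fold, 6.37 to 14.1).

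Lower among the 15 were peaks near or in UTRN, CCNQ and TRPV4. The peak nearest to UTRN, which encodes the dystrophin relative utrophin, lay 103521 bp from it (chr6:144956555-144956976, 9.08-fold, 6.18 to 12.9). The peak near CCNQ, a cyclin gene on the X chromosome, lay 1372 bp from it (chrX:153585933-153586553, 8.90-fold, 5.78 to 13.2). The peak inside TRPV4, which encodes a calcium channel (chr12:109813551-109813951, 8.68-fold, 5.73 to 12.7), had been assigned to MIR4497 at 19397 bp. A peak inside the long noncoding RNA gene MIR4435-2HG (chr2:111416114-111416788) was 8.53-fold enriched (5.48 to 12.7). The other 3 lay in or near the predicted genes LOC105371207, LOC107985915 and LOC105373611, with folds of 9.33, 9.30 and 8.16. Of the 15, 9 lay inside a RefSeq gene, 7 inside a coding gene and 3 more than 10 kb from any RefSeq gene, and 8 were at the lowest background. The last of the 15 shared its fold of 8.16 with 3 further peaks, so 4 peaks were tied there and these counts depend on which of them is taken.

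Among the 143 distal peaks more than 10 kb from every RefSeq gene, the 3 highest were the peaks near VIM, PDE4B and UTRN just described. The next had equal folds of 8.16 (5.19 to 12.3): 1 lay 10900 bp from PPP1R2, an inhibitor of protein phosphatase 1 (chr3:195503150-195503528), and 1 lay 23766 bp from the pseudogene EEF1GP2 (chr5:147946730-147947114). The range over the 143 was 2.17-fold to 11.5-fold, and the median of 5.19 did not differ from that of all distal peaks beyond the intervals.

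Of the 5 peaks farthest from their assigned gene, 4 had folds between 5.34 and 5.93 and 1 was among the highest distal peaks. The farthest, at 2486219 bp, was listed at Y chromosome coordinates (chrY:297948-298530, 5.56-fold, 3.21 to 9.08). So were the second at 1378884 bp (chrY:1405090-1405865, 5.34-fold) and the fifth at 319688 bp (chrY:2464064-2465061, 5.93-fold). The third lay on chromosome 1 at 510591 bp (chr1:104664421-104664847, 5.67-fold, 3.39 to 9.01) and the fourth, inside LOC107985915, was the peak of 9.30-fold on chromosome 2 at 354028 bp (chr2:94219077-94221948).

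All 3 Y chromosome peaks of the list were distal, and each overlapped a peak at the same coordinates of the X chromosome. They lie in the pseudoautosomal region, whose sequence the X and Y chromosomes share, so fragments there cannot be assigned to X or to Y. The Y coordinates therefore do not show binding on a Y chromosome. The X counterparts overlapped by 562, 416 and 519 bp and were 5.04-fold, 4.82-fold and 5.93-fold enriched. At the Y coordinates all 3 were counted as more than 10 kb from every RefSeq gene. On X the first lay inside PLCXD1, the second inside ASMTL and the third inside DHRSX. The third alone was itself distal on X, with ZBED1 as its assigned gene. These pairs therefore count some positions more than once, and without X and Y 484 distal peaks remained.

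Distal peaks were mostly scattered. Joined when less than 50 kb apart, 404 stood alone, and there were 34 pairs, 6 groups of 3, 2 of 4 and 1 of 5. Of the 503, 99 (19.7%, 16.3 to 23.4%) had another distal peak within 50 kb, 160 (31.8%, 27.8 to 36.1%) had any other peak there, and 22 had another distal peak within 1 kb. The group of 5 spanned 24591 bp between ACAP2 and PPP1R2 (chr3:195478938-195503528), and its folds ran from 4.65 to 8.16. A group of 4 lay between UNCX, a homeobox gene, and MICALL2 (chr7:1309149-1379709), with folds of 3.66 to 5.71. The other group of 4 lay within DANT1 and DANT2, noncoding genes of the X chromosome (chrX:115873829-115888009), with folds of 2.82 to 4.82 over high backgrounds of 10.1 to 41.5 fragments. Of the groups of 3, 1 lay inside TLE4, a corepressor gene (chr9:79662740-79674536), with folds of 4.14, 4.18 and 4.23, and 1 lay at transfer RNA genes of chromosome 6.

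By chromosome, the share of distal peaks was 14.9% on chromosome 1 (71 of 476), 19.0% on chromosome 6 (57 of 300, 14.7 to 23.9%) and 23.2% on chromosome 7 (41 of 177, 17.2 to 30.1%). On chromosome 17 the share was 8.65% (16 of 185, 5.02 to 13.7%), and on chromosome 21 it was 30.3% (10 of 33, 15.6 to 48.7%). These shares are of the 3414 peaks with an assigned gene, while the 14.6% given for the list is of all 3457 peaks outside MECOM. Leaving out Y with its 3 peaks, the intervals of chromosomes 7 and 21 lay wholly above 14.6% and that of chromosome 17 wholly below it. All chromosomes were looked at. The lower bound of chromosome 6 was too close to 14.6% to set it apart, given the different bases. Of the 10 distal peaks of chromosome 21, 4 lay at 5 to 10 Mb. These were the peaks near MIR6724-2 and MIR6724-4 described below, with folds of 1.45 to 1.95 over high backgrounds. In windows of 5 Mb, the most distal peaks were 11 of 52 peaks at 25 to 30 Mb of chromosome 6 and 10 of 14 at 165 to 170 Mb of the same chromosome.

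Some distal peaks lay near transfer RNA genes. Transfer RNA genes are short, are transcribed by RNA polymerase III and often stand in clusters. Within 1 kb of a transfer RNA gene lay 18 distal peaks (3.58%, 2.13 to 5.60%), 28 flanking peaks (6.83%, 4.59 to 9.72%) and 51 other peaks (1.75%, 1.31 to 2.30%). Of the 18, 9 lay on chromosome 6 between 26568932 and 27792255, and their folds ran from 4.04 to 7.20 with a median of 5.56. Chromosome 6 holds 154 of the 429 transfer RNA genes (35.9%), and it held 16 of the 28 flanking and 20 of the 51 other peaks near one, so the share of the distal peaks (50%, 26.0 to 74.0%) was not distinguishable from these. The highest was 92 bp from TRI-AAT2-1 (chr6:27687365-27688096, 7.20-fold, 4.67 to 10.7), followed by a peak 181 bp from TRQ-CTG2-1 (6.54-fold, 4.07 to 10.0). Directly over a transfer RNA gene lay 6 distal peaks (1.19%, 0.439 to 2.58%), against 3.90% of the flanking and 0.756% of the other peaks. The 6 lay over TRA-AGC9-1 (6.53-fold), TRV-CAC1-4 (4.70-fold), TRM-CAT4-1 (4.42-fold), TRY-GTA1-1 (4.04-fold), TRK-CTT2-1 (3.73-fold) and TRE-CTC1-3 (2.18-fold). The last had a background of 42.1 fragments, and the intervals of the others overlapped. No distal peak lay within 1 kb of a microRNA or small nuclear RNA gene in RefSeq (0 of 503, which allows up to 0.596%). Neither did any of the 410 flanking peaks, while 25 (0.859%) and 14 (0.481%) of the other peaks did. The list assigns peaks to small RNA genes too, such as MIR4497, and both sets leave out peaks close to their assigned gene. The rule thus favoured these counts of 0 in advance, and they are given as a description. There was 1 distal peak over the small nucleolar RNA gene SNORD147 (3.69-fold, 2.27 to 5.72).

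A background above 20 fragments was found at 11 distal peaks (2.19%, 1.10 to 3.88%) and 13 of the 2954 other peaks (0.440%, 0.235 to 0.751%). Among the 11 distal ones the folds ran from 1.45 to 4.82. On chromosome 21, 4 of them lay near MIR6724-2 and MIR6724-4, at chr21:8229473-8229856, chr21:8234274-8234644, chr21:8415263-8415544 and chr21:8419982-8420680. These had 147 to 447 fragments over backgrounds of 101 to 263 and folds of 1.45 to 1.95, the lowest fold of any distal peak among them. On the X chromosome, 2 lay at DANT1 and DANT2 and 2 at chrX:115731752-115732104 and chrX:115732374-115732991, with folds of 2.17 to 4.82. The other 3 lay inside TMEM242 on chromosome 6 (2.26-fold, background 83.0), over TRE-CTC1-3 and on chromosome 15 (2.94-fold).

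Genes of chosen families were looked up as the gene assigned to a distal peak, the gene around it or the nearest coding gene. The families were chosen with earlier results of these data known. Over all 19862 coding genes, 94 (0.473%) were assigned a distal peak, 208 (1.05%) held one and 420 (2.11%) were the coding gene around or nearest to one. These shares are the base for the counts that follow, in which the last relation is used unless another is named. Spacing between genes was not taken into account. The lists do not hold every gene of a family, so each count is of the listed genes only. The homeobox genes UNCX, TGIF1 and HLX, the corepressor gene TLE4 and the leukaemia transcription factor gene TCF3 were not listed. Each of them was around or nearest to a distal peak.

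Developmental transcription factor genes, which control the identity of cells in the embryo, gave small counts that stand beside the 2.11% of all coding genes. Of 103 listed homeobox and paired box genes, 7 (6.80%) were around or nearest to a distal peak. CUX1 held a peak inside the gene (chr7:101856742-101857069, 5.98-fold, 3.57 to 9.49), a pair of peaks lay 59686 and 67254 bp from PAX5, the B cell factor (5.93-fold and 5.19-fold), and 1 lay 78908 bp from PAX2 (chr10:100654734-100656488, 5.80-fold, 3.73 to 8.65). Of 64 SOX, FOX, POU and T-box genes, 5 (7.81%) were nearest to a distal peak and none held one. The peak 12431 bp from POU4F2, a factor of retinal ganglion cells, was the highest (chr4:146654905-146655330, 7.52-fold, 4.97 to 11.0). The peak nearest to FOXO1, a target of insulin signalling, lay 87010 bp away inside LINC00598 (6.68-fold, 4.04 to 10.5), and the peak nearest to FOXQ1 lay 165231 bp away (6.36-fold, 4.00 to 9.65).

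In the TGF-beta and BMP pathway, ligands bind receptor kinases that activate SMAD proteins, and MECOM is known to bind SMAD3. Of 44 genes of the pathway, 4 (9.09%) were nearest to a distal peak. For the ligand gene BMP7 the peak lay 242707 bp away (chr20:56925135-56926046, 7.82-fold, 5.36 to 11.1). For the inhibitor gene SMAD7 it lay 17674 bp downstream (chr18:48901891-48902179, 6.68-fold, 4.04 to 10.5), and this was the 1 gene of the list that was also the assigned gene. For the receptor gene TGFBR1 it lay 15860 bp away (4.82-fold, 2.67 to 8.15). Of 33 kidney development genes, 4 (12.1%) were around or nearest to a distal peak: BMP7, PAX2, PAX8 and NPHS1. NPHS1, which encodes nephrin of the glomerular filter, held its peak (chr19:35845385-35845708, 5.34-fold, 3.14 to 8.59), which had been assigned to the neighbour KIRREL2 at 10153 bp. These lists share BMP7 with each other and PAX2 and PAX8 with the homeobox list.

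The blood and mast cell lists gave counts too small to set apart from the 2.11% of all coding genes. Of 34 blood and leukaemia transcription factor genes, 1 (2.94%) was around or nearest to a distal peak, LMO2, a bridging protein of blood stem cells, which held a peak of 4.15-fold (chr11:33870284-33870558, 2.35 to 6.89). HLF, a factor of blood stem cells, was the assigned gene of a peak 26356 bp upstream of it (3.73-fold, 2.23 to 5.92). Of 20 mast cell genes, none was assigned, held or was nearest to a distal peak.

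The other lists gave 1 to 4 genes each. Of 81 cell adhesion and axon guidance genes, 4 (4.94%) held a distal peak, among them ROBO1, a receptor of axon guidance (5.04-fold and 4.15-fold), NLGN1, a synaptic adhesion gene (4.84-fold), and SEMA6D (4.67-fold). Of 19 PRDM family genes, the family to which MECOM itself belongs, PRDM1, a repressor of B cell genes, held a peak of 6.53-fold (chr6:105994373-105995047, 4.15 to 9.82) and ZFPM2 one of 5.58-fold (3.51 to 8.47). Of 44 corepressor and chromatin partner genes, EZH2, the methyltransferase of polycomb complex 2, was 56568 bp from a peak (5.87-fold, 3.78 to 8.76). That peak lay only 248 bp from the small RNA gene RNY5, a Y RNA gene, and the list had assigned it to RNY4 at 22075 bp. Of 37 ERK feedback and immediate early genes, 2 (5.41%) were nearest to a distal peak: DUSP5, a phosphatase of ERK (6.84-fold, 4.20 to 10.6), and IER5 (4.59-fold). Of 42 cell cycle and apoptosis genes, BBC3, which encodes the BH3 protein PUMA, was assigned a peak 10776 bp away (6.14-fold, 4.02 to 9.02). That peak lay on the start window of the long noncoding RNA gene LOC124904731. Of 55 WNT pathway genes, DKK2 held a peak (4.45-fold) and WNT9A was nearest to one (4.08-fold). Of 74 ribosomal protein genes, RPL10L (6.30-fold) and RPS3 (5.93-fold) were nearest to one, and of 50 cytoskeleton and extracellular matrix genes only VIM was.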

How the data were processed

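A single annotated peak list of the wild-type library was used. It is tied to that library by the genotype named with the list. Per the submitters' processing notes the reads were processed with HOMER 4.10, ChIPseeker 1.18.0, MACS2 2.1.1.20160309.6, Bowtie2 2.4.2 and deepTools (3.5.1.0.0, 3.3.2.0.0) on hg38. The thresholds and the control of the peak calling were not given in the sources used here. The list has 3465 lines, without a header, for 3462 peaks. The deposited values used are the fold enrichment over local background (a ratio), the −log10 p-value and −log10 q-value of each peak, the smallest −log10 q being 2.00, and the distance in bp to the gene that the authors' annotation assigned. The deposited score of each peak is 10 times its −log10 q, rounded down, and was not used.

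Fragments and expected background at each peak were recovered as the whole number of fragments, plus 1, over the background, plus 1, that gives the fold and whose upper Poisson tail gives the −log10 p within 0.001; 3457 of 3457 peaks outside MECOM had exactly 1 solution, and 100% of 300 simulated peaks were recovered. Intervals are exact 95% Clopper-Pearson intervals for shares, exact Poisson intervals for folds, taken on the fragments at a fixed background, and order-statistic intervals for medians. A limit for a count of 0 is 3 counts of the total. Peaks of 1 library are not replicates, so nothing was tested. Places were taken from 58957 of 59788 RefSeq genes of GRCh38.p14, those on assembled chromosomes, whose primary coordinates are those of hg38; 151 of 155 distinct assigned symbols matched, and in 155 of 155 peaks with a matched symbol the deposited and the RefSeq gene overlapped. Starts came from 35116 RefSeq start windows, none of them on chromosome 8, where 18 distal peaks lie. Motifs were counted there in place of the peak sequence, since a genome was not used; this was chosen after the data were seen. No column of another group was used (0 such columns).

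Members, gene lists and motifs were chosen with earlier results of these data known. Named are the 15 highest distal peaks, the 5 farthest from the assigned gene, 3 on each side of the limit, up to 3 members of each list by fold, the neighbourhoods with most distal peaks, the 5 highest over 10 kb from any RefSeq gene and those over small RNA genes; other names were added after their values were seen, and 1 list member is not reported here. Alternatives were other distance limits, −log10 q of at least 5, merged neighbours, autosomes, named genes only, other height measures and coding genes only. Python 3.11.15, pandas 2.3.3, numpy 2.4.6, scipy 1.17.1 and matplotlib 3.10.9 were used.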

Additional observations from a re-analysis of the deposited data

How the results depend on the processing

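No paired analysis was possible because the values come from no test and a group is 1 library. Of 41 recomputed values, 28 moved by less than their counting interval or, for counts, by less than 1.5 times. The number of distal peaks, 503, was 289 at −log10 q of at least 5, 309 beyond 20000 bp, 114 beyond 50000 bp, 161 with named assigned genes only and 179 by distance to the nearest RefSeq gene span. The ratio of the median fold of distal to other peaks, 1.05, was 1.00 for −log10 q and reversed to 0.944 for fragments, so the distal peaks are not higher by every measure. With named genes only, the upstream share of 59.6% became 72.0%, and the share within 50 kb of another distal peak fell from 19.7% to 9.32%. At −log10 q of at least 5 that share was 14.5%, and the share at or above the 90th percentile of fold went from 10.9% to 19.0%, where that of all peaks went from 10.3% to 18.8%. With coding genes only, 44.1% in place of 56.9% lay inside a gene and 50.5% in place of 28.4% lay over 10 kb from one. Apart from the 2 other height measures, these alternatives change which peaks or genes are counted. Of 20 motif shares, 1 moved: NRF1 was in 0% of windows beyond 20000 bp. The motif search in whole peaks and in 200 bp around their centres was not run, since it needs a genome. A median peak rests on 17 fragments, which limits what can be told apart: most single folds have intervals that include the median of the list.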
